A study of Mus musculus with 17 samples.

Results

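Toll-like receptors and their shared adaptor Myd88 were followed across sorted mouse bone marrow cells that carry or lack glycosylphosphatidylinositol (GPI) anchored proteins. The 10 genes were Tlr1, Tlr2, Tlr3, Tlr4, Tlr5, Tlr6, Tlr7, Tlr9, Tlr13 and Myd88. Members were every probe set whose single gene symbol in the array platform's annotation is a listed gene, which gave 16 of the 45101 probe sets on the array. Of these, 13 reached the 40th percentile of their array on at least 3 arrays, and 9 genes were tested. The exception was Tlr3, whose 2 probe sets stayed below that limit. The probe sets were selected by symbol, with no measured value, but the gene list was chosen from known genes of the family with earlier results of these data in view, in all the comparisons below. The p-values therefore come from a fit over all genes and are not independent evidence about the family.

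Total RNA was measured on 17 Affymetrix arrays. In batch 1, 3 arrays held sorted GPI-negative cells and 3 held sorted GPI-positive cells, all from the marrow of mice with a Pig-a knock-out. In batch 2, 4 arrays held GPI-negative cells of C57BL/6 mice transplanted with marrow of Pig-a knock-out donors, 3 held GPI-positive cells of C57BL/6 mice transplanted with wild-type marrow, and 4 held GPI-positive cells of wild-type C57BL/6 mice. Donor marrow of the knock-out was kept for 30 minutes in 10 nM aerolysin, a toxin that lyses cells with GPI-anchored proteins, and its recipients were irradiated with 9 Gy. The labels do not state these steps for the recipients of wild-type marrow. Cells were sorted with a fluorescent antibody mixture against CD24, CD48 and Gr-1. The ages of the mice, the driver of the Pig-a deletion and the conditioning of the wild-type graft recipients are not given in sources used here. Groups were compared within a batch only.

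Toll-like receptors are membrane proteins of innate immune cells that bind molecules of microbes through leucine-rich repeats outside the cell and signal through a domain inside it. Tlr2 pairs with Tlr1 or Tlr6 to bind bacterial lipopeptides, Tlr4 binds lipopolysaccharide together with the GPI-anchored protein Cd14 and with Ly96, and Tlr5 binds flagellin. Tlr3, Tlr7, Tlr9 and Tlr13 bind nucleic acids inside endosomes. Myd88 carries the signal of the tested receptors to kinases of the Irak family, while Tlr3 uses the adaptor Ticam1.

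The promoters of 5 genes are printed because they belong to the genes on which the comparisons below turn. Tlr2 and its partners Tlr1 and Tlr6 form shared receptors, and in the knock-out Tlr1 moved apart from the other two, and Tlr13 and Myd88 had the most similar profiles among the members. Each runs 5′ to 3′ on the strand of the gene, over 300 bases around a transcript start, from RefSeq on build GRCm38.p6. RefSeq's table had a promoter for 8 of the 10 genes. Tlr1 and Tlr6 had a further start each, whose windows held 0 motif matches and are not shown. Capitals mark matches on either strand to 5 short motifs, GAGGAAG, GAAANNGAA, GGGACTTTC, TGACGTCA and CCGCCC.
Tlr1, chr5:64933509-64933808, minus strand: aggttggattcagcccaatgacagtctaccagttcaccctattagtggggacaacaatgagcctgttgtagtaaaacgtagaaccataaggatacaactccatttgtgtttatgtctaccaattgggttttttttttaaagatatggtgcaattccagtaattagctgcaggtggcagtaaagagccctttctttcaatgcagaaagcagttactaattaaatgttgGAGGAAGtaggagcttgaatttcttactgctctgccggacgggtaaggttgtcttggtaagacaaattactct
Tlr2, chr3:83841559-83841858, minus strand: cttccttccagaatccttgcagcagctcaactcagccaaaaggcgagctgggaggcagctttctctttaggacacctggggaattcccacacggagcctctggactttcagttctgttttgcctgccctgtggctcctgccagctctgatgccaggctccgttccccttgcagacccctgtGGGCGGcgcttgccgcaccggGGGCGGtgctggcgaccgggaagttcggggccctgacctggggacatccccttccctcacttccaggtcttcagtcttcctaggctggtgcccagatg
Tlr6, chr5:64959117-64959416, minus strand: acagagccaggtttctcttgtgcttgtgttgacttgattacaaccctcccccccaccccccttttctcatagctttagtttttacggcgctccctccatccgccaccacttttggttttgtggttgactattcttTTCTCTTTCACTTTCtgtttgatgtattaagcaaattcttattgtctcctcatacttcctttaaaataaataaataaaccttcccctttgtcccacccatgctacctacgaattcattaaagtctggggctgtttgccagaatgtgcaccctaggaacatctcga
Tlr13, chrX:106143025-106143324, plus strand: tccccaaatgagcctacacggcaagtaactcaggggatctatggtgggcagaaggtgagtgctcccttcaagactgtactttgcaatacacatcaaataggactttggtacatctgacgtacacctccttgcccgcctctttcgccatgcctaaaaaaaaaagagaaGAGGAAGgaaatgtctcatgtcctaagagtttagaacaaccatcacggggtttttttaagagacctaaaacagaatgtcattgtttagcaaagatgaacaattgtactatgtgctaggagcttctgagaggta
Myd88, chr9:119339969-119340268, minus strand: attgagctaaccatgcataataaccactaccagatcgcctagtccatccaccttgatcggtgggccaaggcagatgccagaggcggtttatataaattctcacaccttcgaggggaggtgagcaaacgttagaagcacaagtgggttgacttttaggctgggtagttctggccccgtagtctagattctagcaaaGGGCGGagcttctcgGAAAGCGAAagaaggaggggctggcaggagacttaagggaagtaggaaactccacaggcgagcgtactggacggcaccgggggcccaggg

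The motif GAGGAAG, a core bound by the myeloid factor PU.1, stood in the printed windows of Tlr1 and Tlr13 and in 13.6% of the 32851 promoters in the table. The Tlr2 window held 2 matches to CCGCCC, found in 35.7% of all promoters. The printed Tlr6 window held 2 overlapping matches to GAAANNGAA, a core of interferon response elements found in 8.56% of all promoters, and the Myd88 window held 1 match to it and 1 to CCGCCC. Neither GGGACTTTC nor TGACGTCA, present in 0.353% and 1.79% of promoters, stood in any of these 5 windows. These matches describe letters only, and no binding was measured. Tlr1 and Tlr6 are neighbours on chromosome 5 in RefSeq, with no protein-coding gene between them.

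Values are given on a log2 scale relative to the median of all probe sets on the same array, so that 1 unit is a 2-fold difference. Differences between values of the same gene are comparable within a batch, but levels of different genes are not, since each probe set binds with its own strength. Within each batch the deposited arrays share the same distribution of values, and near the floor of the scale differences are compressed. Piga was lower in the GPI-negative groups on its brighter probe set, at 0.21 to 0.48 in knock-out GPI-negative cells against 2.10 to 2.67 in knock-out GPI-positive cells. It was at -1.16 to -0.52 in GPI-negative cells of knock-out graft recipients, against 2.58 to 2.81 in wild-type graft recipients and 2.64 to 2.87 in wild-type cells. The 3 knock-out GPI-positive arrays lay closer together than the other replicates, with a median SD over the brighter genes of 0.0636 against 0.136 to 0.174 in the other 4 groups. Labels call the arrays biological replicates without naming animals, and each p-value covers only the scatter of these arrays, which may be technical. Gapdh 3' minus 5' signal was -0.29 to -0.04 in knock-out GPI-negative cells against -1.03 to -0.997 in knock-out GPI-positive cells. The 11 hybridization control probe sets averaged 6.84 to 7.38 in knock-out GPI-negative cells against 4.95 to 5.47 in knock-out GPI-positive cells. In batch 2 these controls lay between 5.16 and 6.25, and Gapdh 3' minus 5' signal lay between -0.96 and -0.33. The part of these array measures in the differences below was not tested.

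In knock-out marrow, Tlr1 was 2.10-fold higher in GPI-negative than in GPI-positive cells, while 6 other genes of the family were lower. Tlr13 was lower by 2.19-fold, Tlr4 by 1.96-fold, Tlr5 by 1.87-fold, Tlr2 by 1.75-fold, Tlr6 by 1.41-fold and Myd88 by 1.32-fold. Tlr7 and Tlr9 did not pass the test. Thus 7 of the 9 tested genes passed, 1 higher and 6 lower, where limma's fit called 29.5% of all 14245 genes, 14.8% in each direction. The median difference of the 9 genes was -0.49, beside -0.01 over all genes. In bulk samples, fewer cells of a type and less RNA per cell cannot be told apart.

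Tlr1 stood at 2.12, 2.29 and 2.20 in knock-out GPI-negative cells, against 1.16, 1.15 and 1.10 in knock-out GPI-positive cells. All GPI-negative arrays were above all GPI-positive arrays. The log2 difference was 1.07 ± 0.15 (SE, 3 arrays each; limma adjusted p = 9.31e-06), and it was 1.03 to 1.11 when any array was left out.

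Among its partners, Tlr2 stood at 3.78, 2.40 and 2.73 in knock-out GPI-negative cells, against 3.79, 3.80 and 3.73 in knock-out GPI-positive cells. GPI-negative replicate 1 lay within the GPI-positive range, so the groups overlapped, and the other GPI-negative arrays were more than 1 log2 unit lower. The difference was -0.80 ± 0.24 (adjusted p = 0.0159), with an exact two-sided permutation p of 0.2. Its call was lost without GPI-negative replicate 2 (-0.52, adjusted p = 0.108) or 3 (-0.68, adjusted p = 0.0729), and in a fit of batch 1 alone (adjusted p = 0.0677). Tlr6 was lower in all 3 GPI-negative arrays, at 1.25, 0.93 and 0.83, than in the GPI-positive arrays, at 1.49, 1.49 and 1.5. Its difference of -0.49 ± 0.16 (adjusted p = 0.0252) lost its call in 5 of 6 fits with an array left out, the exception being the fit without GPI-negative replicate 1 (adjusted p = 0.0114).

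Tlr4, the lipopolysaccharide receptor, stood at 1.16, 0.84 and 0.72 in knock-out GPI-negative cells, against 1.87, 1.97 and 1.77 in knock-out GPI-positive cells. These groups did not overlap, and the difference was -0.97 ± 0.15 (adjusted p = 4.44e-05). Tlr4 has 4 probe sets, of which 3 passed the filter. In a fit over probe sets, which called 25.4% of 32426, the other 2 that passed were lower by similar amounts, at -0.96 ± 0.13 and -0.89 ± 0.14. The Tlr4 probe set below the filter stood at -0.87 to -0.59 in GPI-negative cells, against -1.08 to -0.63 in GPI-positive cells. In limma's fit without the filter it was not called (0.17 ± 0.22, adjusted p = 0.688). Tlr5, the flagellin receptor, stood at -0.22, -0.68 and 0.03 in GPI-negative cells, against 0.70, 0.65 and 0.49 in GPI-positive cells, with no overlap. Its difference was -0.90 ± 0.18 (adjusted p = 5.92e-04). The levels in GPI-negative cells lay near or below the array median, and differences are compressed toward the floor of the scale.

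Among the endosomal receptors, Tlr13, which binds bacterial ribosomal RNA in mice, stood at 3.05, 2.13 and 2.83 in knock-out GPI-negative cells, against 3.77, 3.80 and 3.82 in knock-out GPI-positive cells. GPI-negative replicate 2 was the lowest, and the groups did not overlap. The difference was -1.13 ± 0.20 (adjusted p = 1.6e-04), and without that replicate it was -0.86 and kept its call (adjusted p = 9.47e-04). Tlr7, a receptor for single-stranded RNA, differed by 0.18 ± 0.16 (95% interval -0.16 to 0.51, adjusted p = 0.45), and Tlr9, which binds unmethylated CpG DNA, by 0.33 ± 0.17 (-0.015 to 0.68, adjusted p = 0.147). Tlr9 stood at 0.02, 0.49 and -0.22 in GPI-negative cells, against -0.10, -0.31 and -0.31 in GPI-positive cells. It passed without GPI-negative replicate 3 (0.49, adjusted p = 0.0393). Over all fits with an array left out, its difference ran from 0.14 to 0.49 (adjusted p = 0.0393 to 0.586). Tlr3, the receptor for double-stranded RNA, stood between -1.06 and -0.38 on the brighter of its probe sets in all 6 arrays and was not tested.

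Myd88 stood at 3.78, 3.37 and 3.76 in knock-out GPI-negative cells, against 4.07, 4.04 and 4.01 in knock-out GPI-positive cells, with no overlap. Its difference was -0.41 ± 0.12 (adjusted p = 0.0165). The call was lost without GPI-negative replicate 2 (-0.27, adjusted p = 0.103) or GPI-positive replicate 1 (-0.39, adjusted p = 0.0552). Groups of 3 arrays cannot give an exact two-sided permutation p below 0.1, and this was its value for Tlr1, Tlr4, Tlr5, Tlr6, Tlr13 and Myd88. These 6 of the 9 tested genes had groups without overlap, as had 43.2% of all 14245 genes. With the 3 close GPI-positive arrays averaged into 1 sample, the lone sample being assumed to vary like the other groups, Tlr1, Tlr4, Tlr5 and Tlr13 kept their calls. Tlr2, Tlr6 and Myd88 lost them (adjusted p = 0.186, 0.234 and 0.204).

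**Figure D1:**
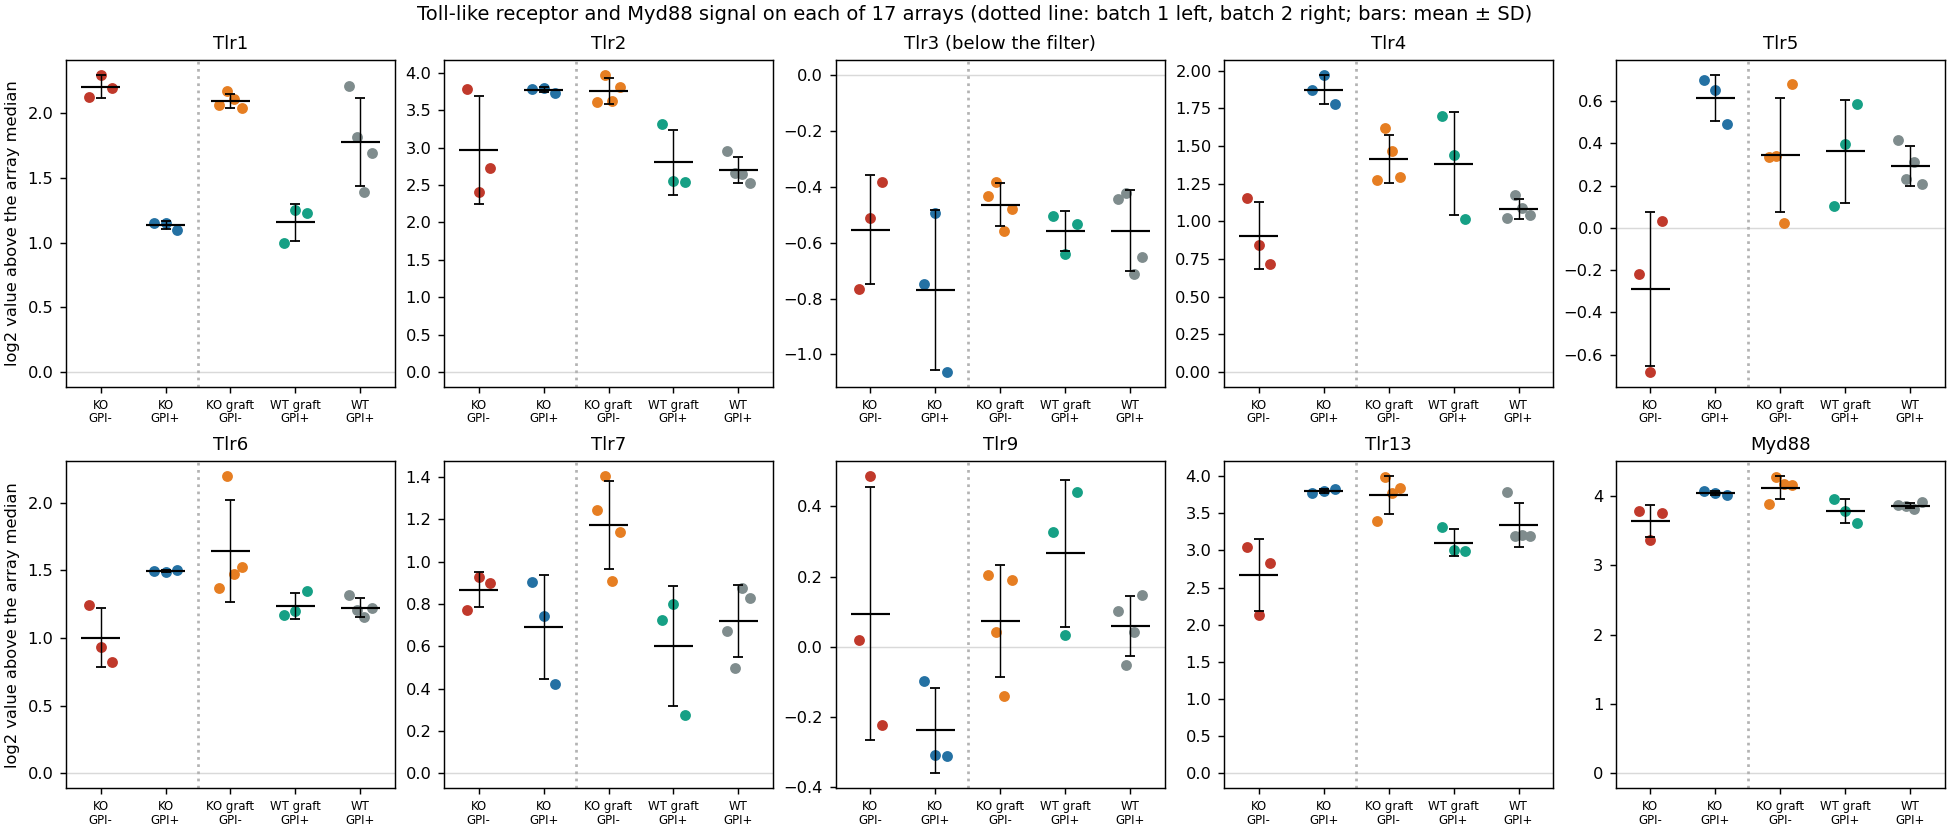
Log2 value above the array median (vertical axis, a scale of its own for each gene) of the 10 genes on each array, by group, with the mean and SD as bars and batches split by a dotted line. Tlr1 lies above the GPI-positive arrays in knock-out GPI-negative cells (2.12 to 2.29 against 1.10 to 1.16), where Tlr4, Tlr5, Tlr6, Tlr13 and Myd88 lie below them. In that comparison 43.2% of all genes were likewise free of overlap.

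In transplanted mice, GPI-negative cells of knock-out graft recipients had higher Tlr1, Tlr2, Tlr7 and Tlr13 than GPI-positive cells of wild-type graft recipients. Tlr2 was 1.94-fold, Tlr1 1.91-fold, Tlr13 1.56-fold and Tlr7 1.49-fold higher. No member was called lower, so 4 of 9 passed, where the fit called 7.39% of all genes, 3.95% higher and 3.45% lower. The median of the 9 differences was 0.40, beside -0.01 over all genes. Groups did not overlap for 5 of the 9 genes, and for 15.5% of all genes. The recipients differ in donor genotype and in the treatment of the graft as well as in GPI status, which cannot be told apart.

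Tlr1 stood at 2.06, 2.17, 2.11 and 2.04 in knock-out graft recipients, against 0.99, 1.25 and 1.23 in wild-type graft recipients. All arrays of knock-out graft recipients were higher. The difference was 0.94 ± 0.14 (SE, 4 and 3 arrays, adjusted p = 1.4e-04), with an exact two-sided permutation p of 0.02857, and its call was kept whichever array was left out. Tlr2 stood at 3.61, 3.97, 3.62 and 3.81 in knock-out graft recipients, against 3.31, 2.55 and 2.54 in wild-type graft recipients. Replicate 1 of the wild-type graft recipients was the highest of its group but still below the knock-out graft arrays. The difference was 0.95 ± 0.23 (adjusted p = 0.0112), and without wild-type graft replicate 2 or 3 it lost its call (adjusted p = 0.0768 and 0.0775). Tlr6 was not called, at 0.40 ± 0.15 (95% interval 0.09 to 0.72, adjusted p = 0.121), although its groups did not overlap. Tlr6 stood at 1.37, 2.20, 1.47 and 1.53 in knock-out graft recipients, with replicate 2 the highest. Without replicate 1 of the knock-out graft recipients Tlr6 passed (0.49, adjusted p = 0.0495). Over all fits with an array left out, its difference ran from 0.22 to 0.49 (adjusted p = 0.0495 to 0.356).

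Tlr13 stood at 3.39, 3.98, 3.78 and 3.84 in knock-out graft recipients, against 3.32, 3.0 and 3.0 in wild-type graft recipients. The lowest knock-out graft array was just above the highest wild-type graft array. The difference of 0.64 ± 0.19 (adjusted p = 0.0362) lost its call without replicate 2, 3 or 4 of the knock-out graft recipients or replicate 2 or 3 of the wild-type graft recipients (adjusted p = 0.0686 to 0.144), and without the variance trend of the fit (adjusted p = 0.0576). Tlr7 stood at 1.24, 1.40, 0.91 and 1.14 in knock-out graft recipients, against 0.72, 0.80 and 0.28 in wild-type graft recipients, with no overlap. The difference was 0.57 ± 0.15 (adjusted p = 0.02). It lost its call without knock-out graft replicate 2 (0.50, adjusted p = 0.0764) or wild-type graft replicate 3 (0.41, adjusted p = 0.157), and the 2 dimmer Tlr7 probe sets, at 0.29 ± 0.18 and 0.39 ± 0.19, did not pass in the fit over probe sets, which called 4.08%.

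The lipopolysaccharide and flagellin receptors showed no detectable difference between the recipients. Tlr4 differed by 0.03 ± 0.14 (95% interval -0.26 to 0.32, adjusted p = 0.948) and Tlr5 by -0.02 ± 0.17 (-0.37 to 0.33, adjusted p = 0.976). Tlr9 differed by -0.19 ± 0.16 (-0.52 to 0.13, adjusted p = 0.567). Myd88 stood at 3.88, 4.27, 4.17 and 4.15 in knock-out graft recipients, against 3.95, 3.78 and 3.61 in wild-type graft recipients, and replicate 1 of the knock-out graft recipients lay within the wild-type graft range. Its difference of 0.34 ± 0.12 (adjusted p = 0.0837) was not called, but passed without that replicate (0.42, adjusted p = 0.0239). In the other 6 fits with an array left out Myd88 did not pass, and over all 7 its difference ran from 0.25 to 0.43. Tlr3 was not tested. On the probe set given for the knock-out it stood between -0.56 and -0.38 in knock-out graft recipients, against -0.64 to -0.50 in wild-type graft recipients. On its other probe set it stood at -0.35 to -0.03 against -0.68 to -0.30.

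**Figure D2:**
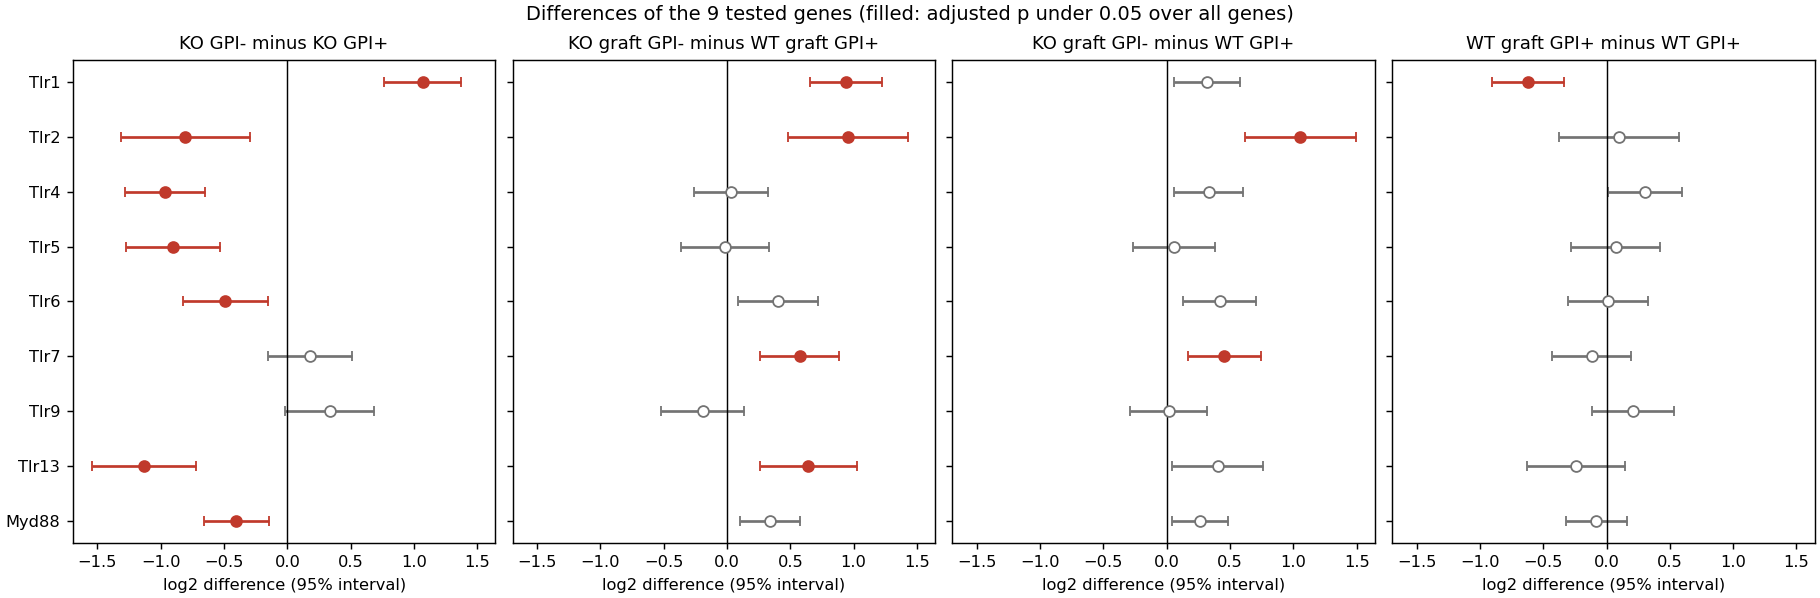
Log2 difference (horizontal axis) with its 95% interval for the 9 tested genes in 4 comparisons, each as named above its panel, filled where limma's adjusted p over all genes was under 0.05. Tlr1 is above 0 in both left panels (1.07 and 0.94), while Tlr2 is at -0.80 in the knock-out and 0.95 between the recipients.

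The differences in knock-out marrow and between the recipients come from separate arrays, and the fit tested whether they differ. For 6 of the 9 genes they did, each lower in the knock-out comparison, where 19% of all genes were called, 9.04% higher and 9.96% lower. The knock-out difference minus the recipient difference was -1.77 ± 0.27 for Tlr13 (adjusted p = 1.39e-04) and -1.76 ± 0.33 for Tlr2 (adjusted p = 8.8e-04). It was -1.0 ± 0.21 for Tlr4 (adjusted p = 0.00174), -0.90 ± 0.22 for Tlr6 (adjusted p = 0.00676), -0.89 ± 0.25 for Tlr5 (adjusted p = 0.0146) and -0.74 ± 0.17 for Myd88 (adjusted p = 0.00371). For Tlr1 it was 0.13 ± 0.20 (95% interval -0.28 to 0.55, adjusted p = 0.697), for Tlr7 -0.40 ± 0.22 (adjusted p = 0.228) and for Tlr9 0.53 ± 0.23 (adjusted p = 0.116). These calls were kept whichever array was left out, except that Tlr9 passed without knock-out GPI-negative replicate 3 (adjusted p = 0.0381). With the 3 knock-out GPI-positive arrays averaged, Tlr5, Tlr6 and Myd88 lost their calls (adjusted p = 0.109, 0.0741 and 0.0567). The comparisons also differ in batch, in transplantation, in the aerolysin treatment of the graft and in the GPI-positive cells, which came from knock-out mice in batch 1 and from recipients of wild-type marrow in batch 2. These cannot be told apart here. The labels' protocol also gives a different amount of labelled RNA for each of the study's experiments, without tying an experiment to a batch.

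Against untransplanted wild-type cells, GPI-negative cells of knock-out graft recipients had higher Tlr2 and Tlr7. Tlr2 stood at 3.61 to 3.97 in knock-out graft recipients, against 2.95, 2.66, 2.65 and 2.53 in wild-type cells, without overlap. It was 2.08-fold higher in the recipients (1.05 ± 0.21, adjusted p = 0.00186). Its call was kept whichever array was left out. Tlr7 stood at 0.91 to 1.40 in knock-out graft recipients, against 0.67, 0.50, 0.87 and 0.83 in wild-type cells, and the groups did not overlap. It was 1.37-fold higher in the recipients (0.46 ± 0.14, adjusted p = 0.0335). Leaving out knock-out graft replicate 1, 2 or 4 or wild-type replicate 1 or 2 ended that call (adjusted p = 0.0635 to 0.118). In the fit over probe sets, which called 8.17%, the 2 dimmer Tlr7 probe sets did not pass (0.27 ± 0.17 and 0.32 ± 0.17, adjusted p = 0.425 and 0.32). Without the filter on dim probe sets the brightest did not pass either (adjusted p = 0.0669). These were 2 of 9 genes, where 12.4% of all genes were called, 6.84% higher and 5.55% lower. The other 7 genes had differences from 0.01 to 0.42 and did not pass. For 4 of the 9 genes the groups did not overlap, beside 16.3% of all genes.

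Tlr1 did not differ detectably between knock-out graft recipients and wild type (0.32 ± 0.13, 95% interval 0.06 to 0.58, adjusted p = 0.11). It stood at 2.04 to 2.17 in knock-out graft recipients, within the spread of the wild-type arrays, at 2.21, 1.81, 1.39 and 1.69. Without wild-type replicate 1, which was the highest, the difference passed (0.46, adjusted p = 0.00898). In the other 7 fits with an array left out it did not, and over all 8 it ran from 0.19 to 0.46. Tlr13 was also highest in wild-type replicate 1, at 3.79 beside 3.19 to 3.21 on the other wild-type arrays. Its difference from knock-out graft recipients was 0.40 ± 0.17 (adjusted p = 0.146) with all arrays and 0.55 (adjusted p = 0.043) without that array. The other 7 fits did not call Tlr13, and over all 8 its difference ran from 0.32 to 0.55. Tlr6 was at 0.42 ± 0.14 (adjusted p = 0.0551). It passed without replicate 1 or 3 of the knock-out graft recipients (adjusted p = 0.0247 and 0.0479), and under a stricter filter on dim probe sets (adjusted p = 0.0448). Over all fits with an array left out, its difference ran from 0.23 to 0.51 (adjusted p = 0.0247 to 0.211). Replicate 2 of the knock-out graft recipients was the highest for Tlr6, at 2.20 beside 1.37 to 1.53 on the others. Myd88 was at 0.26 ± 0.11 (adjusted p = 0.127) and passed without replicate 1 of the knock-out graft recipients (adjusted p = 0.0428). In the other 7 fits with an array left out Myd88 did not pass, and over all 8 its difference ran from 0.21 to 0.34. Tlr3, below the filter, stood on 1 probe set at -0.56 to -0.38 in these recipients, against -0.71 to -0.42 in wild-type cells. On the other it stood at -0.35 to -0.03 against -1.23 to -0.57, without overlap. In limma's fit without the filter that probe set differed by 0.58 ± 0.17 and did not pass (adjusted p = 0.0598).

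GPI-positive cells of wild-type graft recipients had lower Tlr1 than wild-type cells, by 1.54-fold (-0.62 ± 0.14, adjusted p = 0.034), with no overlap between the groups. It was the 1 called gene of 9, where 0.842% of all genes were called, 0.449% higher and 0.393% lower. It was also the 1 gene of 9 without overlap, beside 13.9% of all genes. The call was lost in 6 of 7 fits with an array left out (adjusted p = 0.0609 to 0.158) and kept without wild-type replicate 3 (adjusted p = 0.0123). It was also lost in a fit of batch 2 alone (adjusted p = 0.0693) and without the variance trend (adjusted p = 0.0616). The 3 comparisons of batch 2 share arrays and are not independent. In the order of group means in that batch, Tlr1 was highest in knock-out graft recipients (2.09 ± 0.06, SD), then wild type (1.78 ± 0.34), then wild-type graft recipients (1.16 ± 0.14), and only the first 2 of these neighbours overlapped. For Tlr2 the order was knock-out graft recipients (3.75 ± 0.17), wild-type graft recipients (2.80 ± 0.44) and wild type (2.70 ± 0.18), of which the last 2 overlapped. For Tlr13 it was knock-out graft recipients 3.75 ± 0.25, wild type 3.35 ± 0.30 and wild-type graft recipients 3.11 ± 0.18, and wild type overlapped with both of the others.

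Genes that work with the receptors were taken from lists of the pathway, which were also drawn up with earlier results known. Of 60 such genes tested, 12 were higher and 15 lower in knock-out GPI-negative cells, with a median of 0.01, where 14.8% of all genes were called in each direction. Between the recipients 14 were higher and none was called lower, with a median of 0.14, where 3.95% of all genes were called higher and 3.45% lower. The counts of the single lists below stand against these same shares.

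Coreceptors and chaperones included the parts of the lipopolysaccharide receptor. In knock-out GPI-negative cells 4 of 12 were lower and 2 higher, and between the recipients 5 were higher, against the 14.8% each way and the 3.95% higher of all genes. Cd14, the GPI-anchored coreceptor of Tlr4, stood at 0.63 to 1.05 in knock-out GPI-negative cells against 1.55 to 1.63 in knock-out GPI-positive cells (-0.81 ± 0.17, adjusted p = 0.00106). It stood at 1.86 to 2.28 in knock-out graft recipients against 0.71 to 1.55 in wild-type graft recipients (0.95 ± 0.16, adjusted p = 6.21e-04). Both pairs of groups were free of overlap, in opposite directions. Ly96, which binds lipopolysaccharide beside Tlr4, was lower in the knock-out (-0.65 ± 0.13, adjusted p = 7.46e-04) and not called between the recipients (0.17 ± 0.12, adjusted p = 0.521). Lbp, which delivers lipopolysaccharide to Cd14, was 2.93-fold lower in the knock-out (adjusted p = 3.89e-07). Ly86, the partner of the Toll-like protein Cd180, was higher in both comparisons, by 0.46 ± 0.10 and 0.85 ± 0.09, while Cd180 itself was not called (0.04 ± 0.12 and 0.12 ± 0.12). Unc93b1, which carries endosomal receptors out of the endoplasmic reticulum, was not called in either (0.06 ± 0.17 and 0.39 ± 0.16).

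Of 15 adaptors and kinases 2 were higher and 2 lower in the knock-out, close to the 14.8% of all genes each way, and 2 were higher between the recipients. Tirap, which links Myd88 to Tlr2 and Tlr4, differed most of the 15 in the knock-out comparison, at -1.40 ± 0.16 (adjusted p = 1.16e-06), and was not called between the recipients (0.16 ± 0.15, adjusted p = 0.645). Ticam1, the adaptor of Tlr3, was called in neither (-0.39 ± 0.19 and 0.37 ± 0.18). The kinases Ikbkb and Ikbke, which act on inhibitors of NF-kappa-B and on interferon regulatory factors, were higher in both, Ikbkb by 0.76 ± 0.10 and 0.50 ± 0.09 and Ikbke by 0.93 ± 0.13 and 0.39 ± 0.12. Of 9 transcription factors 3 were higher in each comparison. Irf8, a factor of monocytes, dendritic cells and B cells, was 2.47-fold higher in the knock-out and 1.79-fold higher between the recipients. Irf5, which acts below Myd88, did not pass in either (-0.20 ± 0.18 and 0.56 ± 0.17), and Irf7, which drives interferon genes after Tlr7 and Tlr9, was called between the recipients alone (0.18 ± 0.19 and 0.59 ± 0.18, adjusted p = 0.538 and 0.0494), a difference between comparisons that did not pass itself (adjusted p = 0.304).

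Of 9 inhibitors of the pathway 3 were called higher and 3 lower in the knock-out, against 14.8% of all genes each way. Sigirr, a receptor-like inhibitor, was 2.20-fold higher, and Irak3, an inactive kinase that blocks Irak signalling, was 2.47-fold lower. Cd300a, an inhibitory receptor, was 2.06-fold lower in the knock-out and was the 1 inhibitor of 9 called between the recipients, 1.67-fold higher.

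**Figure D3:**
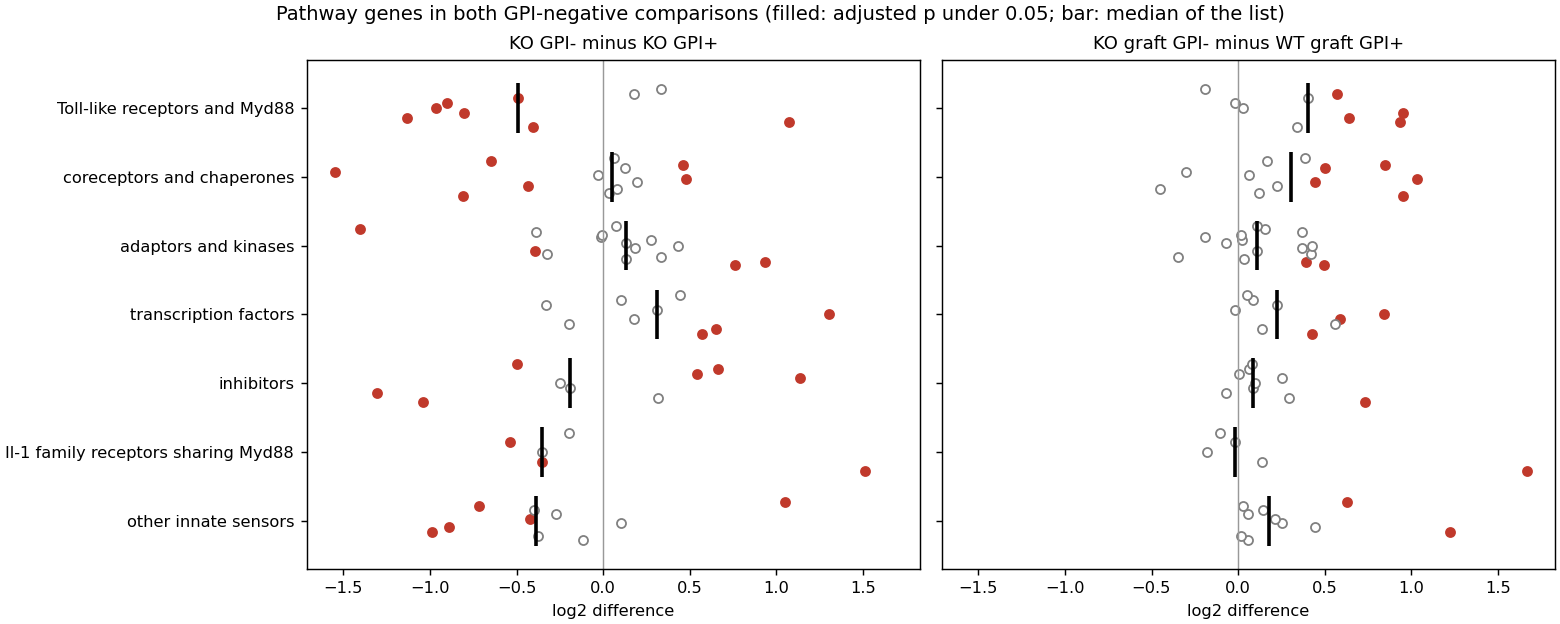
Log2 difference (horizontal axis) of each tested gene of the family and of 6 pathway lists (rows) in knock-out GPI-negative against GPI-positive cells (left) and knock-out graft against wild-type graft recipients (right). Filled points passed at an adjusted p under 0.05 and bars are list medians, which for the family lie at -0.49 and 0.40.

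Markers of cell types were compared between the same groups, and the lists did not all move alike. Their counts stand against 14.8% of all genes called each way in the knock-out. Between the recipients 3.95% of all genes were called higher and 3.45% lower. In knock-out GPI-negative cells 8 of 11 neutrophil markers were lower, and their list mean was 7.30 to 7.56 against 8.29 to 8.32 in GPI-positive cells. All 8 markers of resident macrophages were lower (0.38 to 0.45 against 1.49 to 1.54). C1qa was near the floor, at the 7.18th percentile of the GPI-negative arrays. C1qc, Cd5l and C1qb averaged -0.70, -0.325 and -0.20 there, also below the array median. Markers of monocytes were called lower in 1 of 6 cases (3.89 to 4.55 against 4.40 to 4.50). All 8 markers of plasmacytoid dendritic cells (3.15 to 3.33 against 1.32 to 1.46), 6 of 8 of B cells (3.56 to 3.98 against 2.89 to 2.94), 3 of 6 of conventional dendritic cells (0.86 to 0.91 against 0.43 to 0.56) and all 10 of T and natural killer cells (3.83 to 3.95 against 0.53 to 0.67) were higher. In knock-out graft against wild-type graft recipients, all 6 monocyte markers were higher (4.6 to 5.42 against 3.79 to 4.26), as were 2 of 6 of conventional dendritic cells (0.40 to 0.64 against 0.01 to 0.16), 7 of 8 of plasmacytoid dendritic cells (2.74 to 3.49 against 1.55 to 1.84) and 8 of 10 of T and natural killer cells (1.71 to 2.85 against 0.51 to 0.79). Neutrophil markers were lower in 3 of 11 cases (8.0 to 8.32 against 8.19 to 8.29), macrophage markers in 6 of 8 (0.58 to 0.97 against 1.55 to 1.73) and erythroid markers in 4 of 5 (2.51 to 3.86 against 3.80 to 4.34). Of the macrophage markers, C1qa and C1qc averaged -0.59 and -0.84 in knock-out graft recipients, below the array median. The 3 neutrophil markers were Elane, Mpo and Prtn3, and the median difference of all 11 was 0.11. S100a8 averaged 11.66 in both recipient groups, the top of the scale that arrays of a batch share, so it could not differ there. In knock-out GPI-positive cells S100a8 was also at the top, at 11.10. No B cell marker of 8 was called between the recipients in limma's fit (3.73 to 4.49 against 3.96 to 4.54). In the knock-out comparison no erythroid marker of 5 was called (4.18 to 5.37 against 4.62 to 4.65).

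Of 5 markers of eosinophils, basophils and mast cells, 2 were called lower in the knock-out, and 3 were called higher and 1 lower between the recipients. In the knock-out their list mean was 1.83 to 2.17 in GPI-negative cells against 3.17 to 3.25 in GPI-positive cells, and the eosinophil granule genes Prg2 and Epx were 8.24-fold and 3.96-fold lower. Between the recipients the list mean was 3.27 to 4.33 in knock-out graft against 3.54 to 3.79 in wild-type graft recipients. There the basophil and mast cell genes Mcpt8, Cpa3 and Ms4a2 were 2.67-fold, 2.04-fold and 1.87-fold higher, and Epx was 2.42-fold lower.

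In knock-out graft recipients against wild type, all 6 monocyte markers (4.6 to 5.42 against 3.80 to 4.30), 9 of 10 of T and natural killer cells (1.71 to 2.85 against 0.63 to 1.04) and 6 of 8 of plasmacytoid dendritic cells (2.74 to 3.49 against 1.98 to 2.22) were higher. So were 3 of 5 of eosinophils, basophils and mast cells (3.27 to 4.33 against 2.58 to 3.49) and 2 of 6 of conventional dendritic cells (0.40 to 0.64 against 0.18 to 0.27). Markers were lower for resident macrophages in 7 of 8 cases (0.58 to 0.97 against 1.83 to 2.13), erythroid cells in 5 of 5 (2.51 to 3.86 against 4.42 to 4.95), B cells in 2 of 8 (3.73 to 4.49 against 4.31 to 4.54) and neutrophils in 1 of 11 (8.0 to 8.32 against 8.13 to 8.32). In this comparison 6.84% of all genes were called higher and 5.55% lower. In wild-type graft recipients against wild type, 1 neutrophil marker was called higher and 1 marker each of plasmacytoid dendritic cells and macrophages lower. There 0.449% of all genes were called higher and 0.393% lower. The part of these marker shifts in the receptor differences was not tested.

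**Figure D4:**
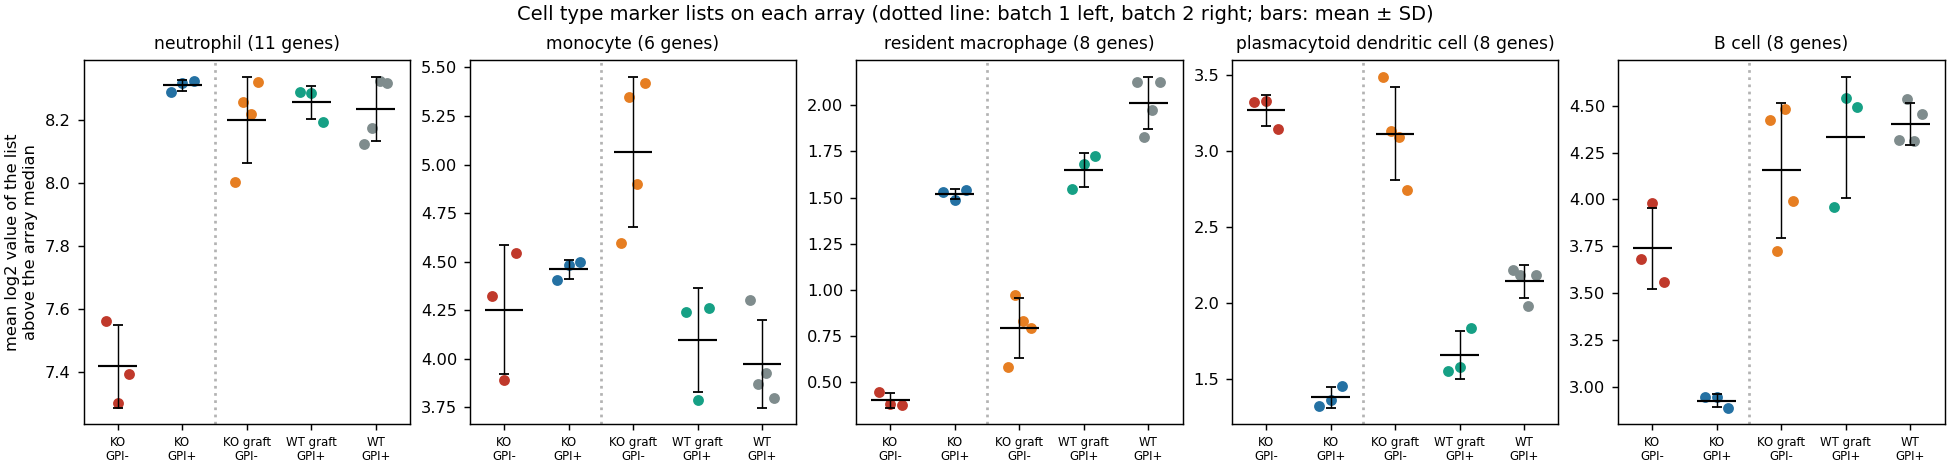
Mean log2 value above the array median (vertical axis, a scale of its own in each panel) of 5 cell type marker lists on each array, with group mean and SD. Neutrophil markers lie at 7.30 to 7.56 in knock-out GPI-negative cells against 8.29 to 8.32 in knock-out GPI-positive cells, and monocyte markers at 4.6 to 5.42 in knock-out graft against 3.79 to 4.26 in wild-type graft recipients.

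The genes most like each member were named by Pearson's r over the 17 arrays, each centred on the mean of its batch. Such an r holds the differences between groups and is given as a description. Closest to Tlr1 were Rnase6 (r = 0.96), Gm8369 and Shisa5. Closest to Tlr2 were Clec4e (0.97), Trem1 and Cebpb, which encode a lectin sensor, a receptor that amplifies inflammation and a factor of granulocyte development. Tlr13 was closest to Il1r2 (0.97), the decoy receptor of interleukin-1, and to Rap1b and Slc11a1. Tlr4 was closest to Jdp2 (0.96), F5 and Fmo5, Tlr6 to Sirpb1a (0.94), Ccdc12 and Cd300a, and Myd88 to Zfhx3 (0.96), Bach1 and Tnfrsf1a. The nearest genes of Tlr5, Tlr7 and Tlr9 were Nqo2 (0.91), Mblac2 (0.85) and Zc3hav1l (0.89). Among members, Tlr13 and Myd88 were most alike (0.92 over all arrays, 0.98 over the 6 of batch 1 and 0.86 over the 11 of batch 2).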

How the data were processed

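Sorted marrow cells in 5 groups were measured on 17 arrays. The authors' deposited table gives a log10-like value per probe set, a base inferred from their range and spacing. Sorted values were identical on all arrays of a batch, as quantile normalization within a batch leaves them. How background was treated and probes combined is not given in sources used here. GCOS version 12 is named, without its use, per the submitters' processing notes. The number of arrays limits the precision.

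Values were divided by the log10 of 2 and each array's median was subtracted. Of 45037 non-control probe sets, 34945 have 1 gene symbol in the platform annotation, 932 several and 9160 none. Probe sets at their array's 40th percentile or above on at least 3 arrays were kept (32426), and the brightest stood for its gene (14245 genes). One limma fit (version 3.58.1, R 4.3.3; lmFit, eBayes with trend) estimated 5 group means, with Benjamini-Hochberg adjustment over all genes, or over all kept probe sets, and a threshold of 0.05. Symbols Mb21d1 and Tmem173 were read as their current names.

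Members, lists and tests were chosen with earlier results of these data known. All 10 members are described, and up to 4 called genes per list plus a fixed set are named. The fit was tested on simulated data. Alternatives covered normalization, filter, probe set choice, trend, batch, replicate number and leaving out arrays.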

Additional observations from a re-analysis of the deposited data

Results flagged for a closer look

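On the 4 wild-type arrays, Tlr13 stood at 3.19, 3.21 and 3.20 on replicates 2 to 4 and at 3.79 on replicate 1. The gap took 0.976 of the group's range, above Dixon's critical value at the 95% level for 4 samples. This check covered 18 groups of 4 arrays, and by chance about 1 in 20 such groups is flagged. The same array was the highest of its group for Tlr1 (2.21) and Tlr2 (2.95).

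For 6 genes the GPI-negative minus GPI-positive difference in knock-out marrow differed from that between the recipients by the interaction test of the fit. The difference between the comparisons was -1.77 for Tlr13, -1.76 for Tlr2, -1.0 for Tlr4, -0.90 for Tlr6, -0.89 for Tlr5 and -0.74 for Myd88. Marker lists differed between the comparisons too by the same test, which called 9.04% of all genes higher and 9.96% lower. Called lower were 8 of 11 neutrophil, all 6 monocyte, 3 of 5 eosinophil, basophil and mast cell and 2 of 8 resident macrophage markers. Called higher were all 10 markers of T and natural killer cells, 5 of 8 of B cells, 3 of 5 of erythroid cells and 2 of 8 of plasmacytoid dendritic cells. No marker of conventional dendritic cells was called of 6. Their part in the receptor values was not tested.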

How the results depend on the processing

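Of 760 member values recomputed under an alternative, 689 kept direction and side of the threshold, 45 lost a call, 10 gained one and 16 changed sign. No called value changed sign. Those that did were near 0: between the recipients Tlr4 (left-out range -0.15 to 0.19) and Tlr5 (-0.15 to 0.0939); against wild type, in knock-out graft recipients Tlr5 (-0.0581 to 0.16) and Tlr9 (-0.0285 to 0.0863), and in wild-type graft recipients Tlr2 (-0.15 to 0.23), Tlr5 (-0.0399 to 0.20), Tlr6 (-0.0407 to 0.0468, and -0.0057 with the block), Tlr7 (-0.22 to 0.0443) and Myd88 (-0.17 to 0.0064).

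With each array left out, called members numbered 4 to 7 in the knock-out (3298 to 3901 genes), 1 to 6 between the recipients (680 to 1310), 1 to 3 for knock-out graft recipients against wild type (1315 to 1729), 0 to 1 for wild-type graft recipients against wild type (21 to 89) and 6 to 7 in the interaction (2095 to 3064). With the knock-out GPI-positive arrays averaged there were 4 in the knock-out (1652 genes), 3 in the interaction (978) and 0 in wild-type graft recipients against wild type (45). Fewer samples enter these fits. That comparison also had 0 members without the trend (59 genes) and in the batch fit. Same-numbered arrays did not deviate together (correlations of -0.18 to 0.10). This cannot show whether they share an animal, since the labels name none and the groups are small. With the replicate number as a block, 2 members passed between the recipients, 1 for knock-out graft recipients against wild type, and 0 for wild-type graft recipients against wild type (45 genes). The cause was not tested. Low signal limits Tlr3, which lay below the array median throughout, and Tlr5 and Tlr9, which lay around it.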

Other observations

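Another pair of Toll-like receptors had probe sets with a single symbol. Tlr8, the neighbour of Tlr7 on the X chromosome, stood at 0.55, 0.25 and 0.34 in knock-out GPI-negative cells, against 0.82, 0.86 and 0.80 in knock-out GPI-positive cells, with no overlap. It was lower by 0.45 ± 0.14 on the log2 scale (limma adjusted p = 0.0201) and was not called between the recipients (0.29 ± 0.13, adjusted p = 0.225). Tlr12 lay near the array median on the probe set that passed the filter and was called in neither comparison (0.07 ± 0.18 and 0.21 ± 0.17). Its other probe set was below the filter, and no test of it is given. There Tlr12 stood at -0.53 to 0.36 in knock-out GPI-negative cells, against -1.22 to -1.10 in knock-out GPI-positive cells, near the floor at a mean percentile of 6.3. Between the recipients it stood at -0.85 to -0.56 against -0.88 to -0.48.

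Sensors of microbes outside the family were also measured. Clec4e, a lectin that binds mycobacterial glycolipid, stood at 2.77 to 4.56 in knock-out GPI-negative cells against 4.56 to 4.69 in knock-out GPI-positive cells (-0.99 ± 0.29, adjusted p = 0.0131), and the groups were not separate (exact two-sided permutation p = 0.2). It stood at 5.08 to 5.29 in knock-out graft recipients against 3.42 to 4.62 in wild-type graft recipients (1.22 ± 0.27, adjusted p = 0.00667). Sting1, which signals cytosolic DNA, was higher in both comparisons, by 1.05 ± 0.17 and 0.63 ± 0.16. Of 10 such sensors tested, 4 were lower and 1 higher in the knock-out, and 2 were higher between the recipients, against 14.8% of all genes each way in the knock-out and 3.95% higher between the recipients. Of 5 receptors of the interleukin-1 family, which also signal through Myd88, 1 was higher and 2 lower in the knock-out. Between the recipients 1 was higher, and the shares of all genes are those just given. Il18r1 was 2.85-fold higher in the knock-out and 3.18-fold higher between the recipients. Il1rap and Il18rap were lower in the knock-out, at -0.54 and -0.35 (limma adjusted p = 0.00294 and 0.0494), and were not called between the recipients.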
